A study of Saccharomyces cerevisiae with 9 samples.

Results

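Transcriptomes of diploid yeast cells overexpressing EGFP were set against those of cells with the empty vector, over every gene entry of the deposited count table other than the ERCC spike-in RNAs. The comparison used 6 of the 9 libraries of the series, 3 labelled GFPop and 3 labelled Vector, and 7128 of the 7220 entries of the table. Of these gene entries, 6302 passed a filter on low counts and were tested.

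EGFP is enhanced green fluorescent protein, here encoded by a gene with codons adapted to yeast. Both groups were BY4743, a diploid laboratory strain of the genotype MATa/α his3Δ1/his3Δ1 leu2Δ0/leu2Δ0 LYS2/lys2Δ0 met15Δ0/MET15 ura3Δ0/ura3Δ0, and both carried the multicopy plasmid pTOW40836. This plasmid has the origin of the yeast 2 µ plasmid, URA3 and leu2-89, a LEU2 allele with a truncated promoter that favours cells with many copies when leucine is missing. In the EGFP group the plasmid also held the EGFP gene behind the strong TDH3 promoter, and in the vector group it held no fluorescent protein gene. All cultures were grown in SC–Leu/Ura at 30 °C with shaking and harvested in log phase at an OD of 1.0, with no other agent. The cells set their own plasmid copy number in this system, and copy number was not analysed here. The 3 libraries of a group are labelled as biological replicates, and no label gives a batch.

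Yeast answers unfolded cytosolic protein mainly through Hsf1, a transcription factor that drives chaperone genes. Msn2 and Msn4 drive a broad set of stress genes when growth is disturbed. Separate factors watch nutrients: Pho4 responds to phosphate shortage, Zap1 to zinc shortage, Aft1 to iron shortage, and Bas1 with Pho2 to low purines. The question of the comparison was which of these programmes differ in cells that make a large amount of a protein with no function of its own in yeast.

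Gene counts per library were 7022201 to 9569895 with EGFP and 10643868 to 12959660 with the vector, and the groups did not overlap (exact permutation p = 0.1, two-sided, the smallest that 3 libraries against 3 allow). Levels are given as CPM, the count scaled to a common library size after TMM normalization, which scales libraries so that most genes do not move. In EGFP replicates 1 to 3, the EGFP transcript made up 11.52, 11.23 and 23.78% of all gene counts (95% Wilson intervals 11.50 to 11.55, 11.21 to 11.25 and 23.75 to 23.81, which cover counting error only). It took at most 0.000675% in a vector library. EGFP replicate 3 therefore held the largest share of EGFP transcript, and for several genes described further on that library stood apart from the other EGFP libraries. Ribosomal RNA took 9.14 to 14.4% of gene counts in EGFP libraries and 8.62 to 23.0% in vector libraries, where vector replicate 1 was the highest.

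The selection markers of the plasmid fell. URA3, which this strain has only on the plasmid, stood at 9238, 5870.4 and 3943 CPM in EGFP replicates 1 to 3, against 24741, 24404 and 29304 CPM in vector replicates 1 to 3 (log2 fold change -2.04 ± 0.33 SE, adjusted p = 0.000514). LEU2 stood at 1817, 1700.4 and 1033 CPM with EGFP, against 9934, 11536 and 8158 CPM with the vector (-2.70 ± 0.30, adjusted p = 4.5e-05). For both markers every EGFP library was below every vector library, and EGFP replicate 3, with the most EGFP transcript, was the lowest. LYS2, which is deleted on one homologue in both groups, also fell (-1.47 ± 0.33, adjusted p = 0.00469). Adjusted p-values here and below come from edgeR's quasi-likelihood test with Benjamini-Hochberg adjustment over all genes tested, and they measure the spread between these 6 libraries.

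As a check of the diploid label, genes that diploid cells repress were examined. Of 18 such genes, 17 were tested, 3 were higher and 3 lower with EGFP, and their summed level was 112.72, 129.67 and 121.17 CPM with EGFP, against 281.34, 217.86 and 235.83 CPM with the vector. The pheromone receptor genes STE2 and STE3 were detected in every library, at 7.20 to 11.4 CPM and 7.63 to 11.4 CPM with EGFP, against 10.7 to 17.8 CPM and 8.23 to 11.0 CPM with the vector. AXL1, which sets the budding pattern of haploid cells, was the most abundant of the members that fell, at 21.9, 23.3 and 32.8 CPM with EGFP, against 138, 97.0 and 117 CPM with the vector (-2.18 ± 0.25, adjusted p = 6.5e-05). HO, the mating-type switching endonuclease, also fell (-2.70 ± 0.32, adjusted p = 8.06e-05), and so did GPA1. The 3 higher members were MF(ALPHA)1, AGA2 and RME1. MF(ALPHA)1 rose by 1.51 to 2.02 on the log2 scale when any 1 library was left out (adjusted p at most 0.0496). AGA2 and RME1 did not pass the test in some of these fits (adjusted p up to 0.118 and 0.0985). The part of these differences in the results below was not tested.

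EGFP cells had 898 genes (14.2% of those tested) above and 1055 (16.7%) below the vector cells at an adjusted p below 0.05. Such genes are called below, and these percentages are the background against which the count of any gene group is read. Of the called genes, 587 were at least 2-fold higher and 763 at least 2-fold lower. The replicates of the groups did not overlap for 874 of the genes called higher and 1007 of those called lower. Over all genes tested, the 3 EGFP values lay above the 3 vector values for 1465 genes (23.2%) and below them for 1399 (22.2%). All genes tested had a median of 0.06 on the log2 scale. As each library comes from a whole culture, a change in some of the cells and a change in every cell cannot be told apart.

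These counts depend on the scaling and on single libraries. Scaled by library sizes alone, without TMM factors, 2029 genes were higher and 508 lower, 80.0% of calls higher against 46.0% under TMM, since that scaling moved the median of all genes up by 0.46 on the log2 scale. Changes are therefore given relative to the median gene. Without vector replicate 1 or without vector replicate 3, 556 genes were higher in each case.

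Chaperone genes driven by Hsf1 rose with EGFP as a group. Of 18 Hsf1 targets tested, 15 were called higher and none lower, with a median of 1.51 on the log2 scale, and for 17 of them every EGFP library was above every vector library. The members with the largest changes were BTN2, whose product gathers misfolded protein into deposits, the Hsp90 gene HSP82, HSP42, a small heat shock protein that holds aggregates, the Hsp70 and Hsp90 cochaperone gene STI1, and the disaggregase genes HSP78, of mitochondria, and HSP104, of the cytosol. The 3 targets not called were HSC82, SSA2 and HCH1. HSF1 itself was called lower.

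Hsf1 binds inverted repeats of a 3-base unit. A run of 3 units, GAANNTTCNNGAA or TTCNNGAANNTTC on either strand, was found within 500 bases before the start codon of 9 of the 15 targets called higher and of 1 of the 3 not called, and in 89 of 6006 promoters (1.48%). A pair of units, GAANNTTC or TTCNNGAA, which every longer run contains, was found in 14 of the 15 and in 35.2% of all promoters. The runs of BTN2, HSP42, HSP104 and SIS1 are shown as examples of targets called higher that had such a run, and that of RPN4, the activator of proteasome genes, since it is no chaperone gene. HSP82, YDJ1 and CPR6, also called higher, had no such run. Capitals mark the run of units, and the strand is that of the gene. For RPN4, 1 of its 2 matches is shown. The windows are chrVII:772098-772139 (plus strand, 356 to 315 bases before the BTN2 start codon), chrIV:806366-806407 (plus, 255 to 214 before HSP42), chrXII:88309-88350 (plus, 314 to 273 before HSP104), chrXIV:619875-619921 (minus, 356 to 310 before SIS1) and chrIV:417032-417068 (minus, 360 to 324 before RPN4) of the RefSeq assembly R64.
BTN2: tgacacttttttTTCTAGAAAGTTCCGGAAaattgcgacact
HSP42: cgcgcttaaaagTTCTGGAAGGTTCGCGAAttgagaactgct
HSP104: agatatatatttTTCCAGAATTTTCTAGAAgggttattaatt
SIS1: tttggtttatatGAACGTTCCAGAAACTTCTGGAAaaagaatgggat
RPN4: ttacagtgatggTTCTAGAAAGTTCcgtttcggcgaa

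BTN2 stood at 44.1, 46.3 and 60.9 CPM in the EGFP libraries, against 4.51, 5.07 and 6.30 CPM in the vector libraries (log2 fold change 3.24 ± 0.27 SE, adjusted p = 5.64e-06). HSP42 stood at 186, 159 and 113 CPM with EGFP, against 17.5, 21.0 and 30.2 CPM with the vector (2.74 ± 0.28, adjusted p = 2.78e-05). HSP104 stood at 366, 361 and 374 CPM with EGFP, against 66.9, 82.5 and 105 CPM with the vector (2.11 ± 0.24, adjusted p = 6.06e-05). In all of these every EGFP library was above every vector library, and the EGFP values of HSP104 were nearly equal. HSP82 stood at 445, 415 and 496 CPM with EGFP, against 36.6, 69.4 and 84.6 CPM with the vector (2.83 ± 0.31, adjusted p = 3.76e-05). Its constitutive copy HSC82, nearly identical in sequence, stood at 820.4, 652 and 975 CPM with EGFP, against 475, 629 and 749.7 CPM with the vector (0.40 ± 0.26, adjusted p = 0.256), and reads may have been shared between the copies. The groups of HSC82 overlapped.

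Of the 12 Hsp90 cochaperone genes 4 were called higher, and of the 10 genes of J proteins 4 were, with none lower in either group. STI1, which hands clients from Hsp70 to Hsp90, stood at 241, 231 and 218 CPM with EGFP, against 38.0, 60.4 and 50.3 CPM with the vector (2.21 ± 0.24, adjusted p = 3.96e-05). SIS1, a J protein that recruits Hsp70 to misfolded protein, stood at 179, 146 and 159.9 CPM with EGFP, against 44.3, 52.6 and 59.0 CPM with the vector (1.63 ± 0.22, adjusted p = 0.00018). YDJ1, the most general cytosolic J protein, changed as much (1.63 ± 0.23, adjusted p = 0.000237). The peptidyl-prolyl isomerase gene CPR6 (1.45 ± 0.23, adjusted p = 0.000543), the Hsp70 exchange factor gene FES1 (1.44 ± 0.25, adjusted p = 0.000837) and the Hsp90 activator gene AHA1 (1.21 ± 0.26, adjusted p = 0.00313) also rose. MDJ1, the J protein of mitochondria, lost its call without EGFP replicate 2 (adjusted p = 0.0536) or without vector replicate 1 (adjusted p = 0.0615), and the count of targets called higher was 14 or 15 whichever library was left out.

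Within the Hsp70 family the stress-induced members rose. SSA4, the strictly stress-induced cytosolic Hsp70, stood at 99.3, 103 and 75.2 CPM with EGFP, against 7.17, 11.1 and 11.6 CPM with the vector (3.21 ± 0.27, adjusted p = 6.69e-06). SSA3 (2.37 ± 0.28, adjusted p = 6.34e-05) and the stress-induced exchange factor gene SSE2 (2.12 ± 0.25, adjusted p = 7.33e-05) also rose. The cytosolic Hsp70 gene SSA1 rose as well, by 1.24 to 1.49 when any 1 library was left out (adjusted p at most 0.00595). The ribosome-associated Hsp70 genes SSB1 (-0.60 ± 0.26, adjusted p = 0.094) and SSB2 (-0.47 ± 0.26, adjusted p = 0.191), which are nearly identical to each other, were not called, although SSB1 was without vector replicate 2 (adjusted p = 0.0266). Of the 21 genes of cytosolic Hsp70s and their partners, 9 were called higher and 1 lower, with a median of 0.65. The one called lower was SSZ1, a ribosome-associated Hsp70 (-0.64 ± 0.23, adjusted p = 0.044), and none was lower without any 1 of the EGFP libraries, without vector replicate 1 or without vector replicate 3. In mitochondria, the disaggregase gene HSP78 (2.199 ± 0.26, adjusted p = 6.34e-05) and the Lon protease gene PIM1 (1.39 ± 0.26, adjusted p = 0.00135) rose, whereas the matrix Hsp70 gene SSC1 fell to 607, 841 and 573 CPM with EGFP, against 1489, 1279 and 1429 CPM with the vector (-1.05 ± 0.24, adjusted p = 0.00573). Of the 14 genes of the chaperonin CCT and prefoldin, which fold actin and tubulin, 1 was called higher and none lower, with a median of 0.06.

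HSF1 stood at 90.2, 69.2 and 51.8 CPM with EGFP, against 158, 188 and 155 CPM with the vector (-1.25 ± 0.25, adjusted p = 0.00208). The transcript of the regulator was thus lower in every EGFP library while 15 of its 18 targets tested were higher.

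**Figure D1:**
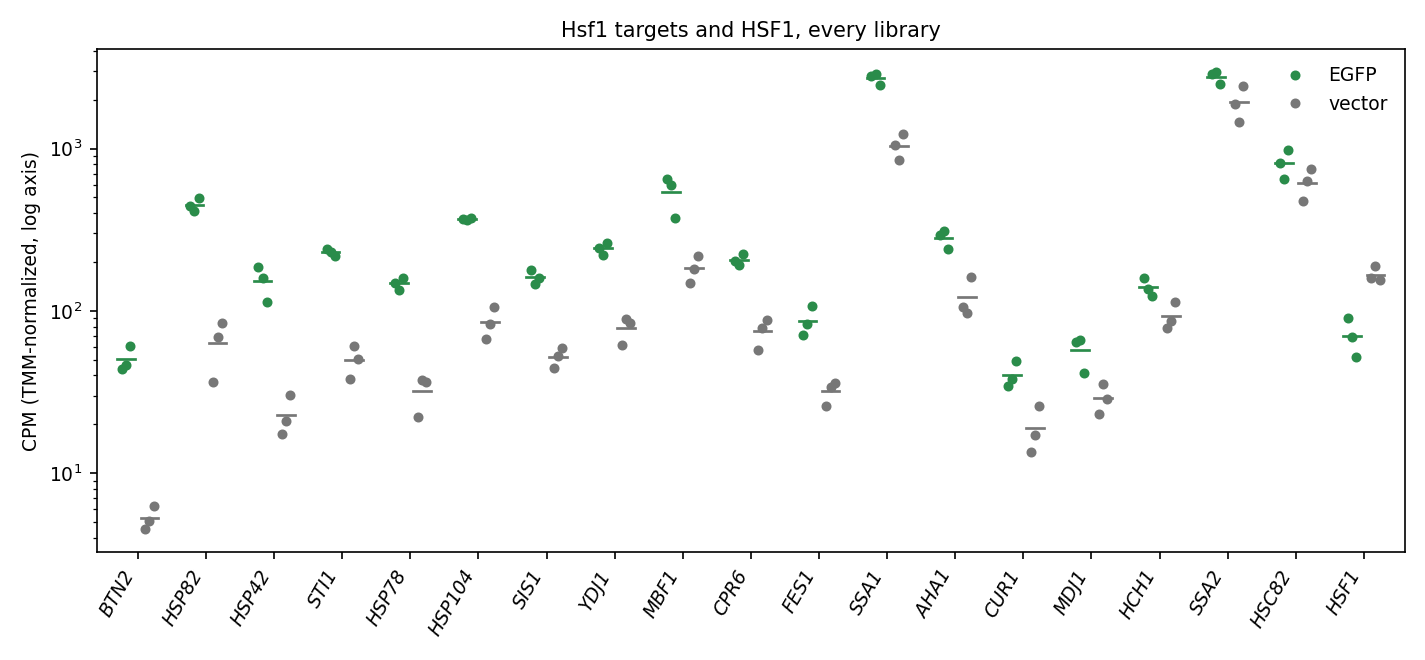
Level of each Hsf1 target and of HSF1 in every library, in CPM on a log axis, with EGFP libraries in green left of vector libraries in grey and a short line at the mean of each group. For 17 of the 18 targets the 3 EGFP points lie above the 3 vector points, and for HSF1 they lie below.

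Proteasome subunit genes did not move as a group, although their activator did. RPN4, which binds the promoters of proteasome genes, stood at 98.5, 121 and 118 CPM with EGFP, against 19.6, 26.4 and 26.0 CPM with the vector (2.23 ± 0.24, adjusted p = 3.37e-05). Of the 33 subunit genes, 1 was called higher and 1 lower, with a median of 0.01. The nonamer GGTGGCAAA, searched on both strands, to which Rpn4 binds, was found before 27 of the 33 subunit genes and in 1.65% of all promoters. RPT4, an ATPase of the regulatory particle, was the subunit called higher (0.91 ± 0.24, adjusted p = 0.0114), but not without vector replicate 1 (adjusted p = 0.0592) or vector replicate 3 (adjusted p = 0.0635). RPN2, a scaffold subunit, was the one called lower (-1.12 ± 0.27, adjusted p = 0.00737), and ECM29, which tethers the core to the regulatory particle, fell to 42.6, 58.03 and 71.4 CPM with EGFP, against 205, 133 and 211 CPM with the vector (-1.67 ± 0.27, adjusted p = 0.000508).

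Genes of ubiquitin and of Cdc48, the segregase that pulls ubiquitinated protein out of complexes, gave smaller changes. With RPN4, the assembly factors and the adaptors, 8 of 28 were called higher and 1 lower, with a median of 0.46. The polyubiquitin gene UBI4 stood at 388, 398 and 252 CPM with EGFP, against 184, 189.8 and 171 CPM with the vector (0.93 ± 0.24, adjusted p = 0.0109). The calls of this group rested on single libraries, with 2 called higher without vector replicate 1, 3 without EGFP replicate 1, 3 without EGFP replicate 2 and 4 without vector replicate 3. CDC48 itself stood at 341, 408 and 329.9 CPM with EGFP, against 425, 309.7 and 492 CPM with the vector, and was not called (adjusted p = 0.591).

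General stress genes under Msn2 and Msn4 rose as a group. Of 39 such genes, the 2 regulators included, 31 were called higher and none lower, with a median of 1.37, and 27 to 33 were called higher when any 1 library was left out. The stress response element AGGGG, searched on both strands, was found before 28 of the 31 called and before 7 of the 8 not called, and in 34.1% of all promoters. The elements of DDR2 and HSP12 are shown since these genes had the largest changes of the group. Capitals mark AGGGG or its complement CCCCT. The windows are chrXV:231914-232015 (minus strand, 260 to 159 bases before the start codon of DDR2, 3 of its 4 matches) and chrVI:106809-106895 (plus, 447 to 361 before HSP12, 3 of its 5 matches) of R64.
DDR2: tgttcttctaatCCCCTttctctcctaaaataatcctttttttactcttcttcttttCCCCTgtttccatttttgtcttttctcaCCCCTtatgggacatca
HSP12: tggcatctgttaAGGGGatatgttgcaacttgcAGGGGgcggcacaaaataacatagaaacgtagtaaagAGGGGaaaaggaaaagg

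DDR2, a stress gene whose product has no settled function, stood at 291, 422 and 189.9 CPM with EGFP, against 3.72, 4.16 and 2.07 CPM with the vector (6.51 ± 0.40, adjusted p = 3.21e-07). HSP12, which encodes a membrane-associated stress protein, stood at 1056, 583 and 479 CPM with EGFP, against 18.6, 33.2 and 6.47 CPM with the vector (5.18 ± 0.53, adjusted p = 2.69e-05). HSP26, a small heat shock protein gene, stood at 310.2, 412 and 127 CPM with EGFP, against 24.0, 24.7 and 27.8 CPM with the vector (3.47 ± 0.37, adjusted p = 3.45e-05). For all of these the groups were far apart, and EGFP replicate 3 was the lowest of the EGFP libraries. TMA10, a ribosome-associated stress protein gene (3.43 ± 0.29, adjusted p = 6.69e-06), HSP30, which encodes a plasma membrane heat shock protein (3.23 ± 0.36, adjusted p = 5.22e-05), MOH1 (2.88 ± 0.29, adjusted p = 2.1e-05) and the cytosolic catalase gene CTT1 (2.62 ± 0.25, adjusted p = 1.7e-05) also rose. The transcripts of the regulators changed less, with MSN4 at 31.6, 45.9 and 38.3 CPM with EGFP, against 19.4, 14.7 and 22.6 CPM with the vector (1.03 ± 0.25, adjusted p = 0.00779). MSN2 was called (0.79 ± 0.28, adjusted p = 0.0479), but not without EGFP replicate 2, EGFP replicate 3, vector replicate 1 or vector replicate 2 (adjusted p = 0.0996 to 0.14).

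The reserve carbohydrates trehalose and glycogen, which cells store under stress, showed a mixed pattern. The trehalases NTH1 (1.47 ± 0.21, adjusted p = 0.000285) and NTH2 (0.99 ± 0.24, adjusted p = 0.00729), which break trehalose down, and TPS2, the phosphatase of its synthesis (1.61 ± 0.27, adjusted p = 0.000754), rose. TPS1, the synthase, stood at 566, 603 and 397 CPM with EGFP, against 352, 251 and 366 CPM with the vector, and was not called (adjusted p = 0.0532), although it was without EGFP replicate 3 (adjusted p = 0.0256). For glycogen, the phosphorylase gene GPH1 stood at 256, 289 and 251 CPM with EGFP, against 145, 73.0 and 73.5 CPM with the vector (1.45 ± 0.28, adjusted p = 0.00197), while the synthase genes GSY1 and GSY2 were not called (adjusted p = 0.206 and 0.56). GSY1 was called lower without vector replicate 2 (adjusted p = 0.0375). Of the genes of trehalose, 5 of 10 were called higher and 2 lower, with 3 called higher without EGFP replicate 2, and of those of glycogen, 6 of 12 were called higher and none lower.

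Genes of the defence against oxidants did not move as a group. Of 40, 9 were called higher and 4 lower, with a median of -0.02. SRX1, which repairs oxidized peroxiredoxins, stood at 14.9, 13.6 and 6.67 CPM with EGFP, against 1.73, 1.16 and 1.21 CPM with the vector (3.12 ± 0.40, adjusted p = 0.000131). The peroxiredoxins split, since TSA2 (1.65 ± 0.27, adjusted p = 0.000566) and the mitochondrial PRX1 (1.23 ± 0.22, adjusted p = 0.00104) rose, whereas TSA1, the most used of the family, fell to 1304, 1529 and 982 CPM with EGFP, against 3415, 2488 and 2372 CPM with the vector (-1.12 ± 0.27, adjusted p = 0.00653). The Yap1 site TTACTAA, searched on both strands, was found before 4 of the 9 genes called higher, before 15 of the 27 not called, and in 11.8% of all promoters. YAP1 itself, the main oxidant-sensing factor, was not called (0.68 ± 0.26, adjusted p = 0.0585), although it was without vector replicate 2 (adjusted p = 0.0478).

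Folding genes of the endoplasmic reticulum (ER) fell. Of 20 genes of ER folding and the unfolded protein response, none was called higher and 10 were called lower, with a median of -0.83, and 8 to 10 were lower when any 1 library was left out. Among the 6 genes of oxidative folding, which make disulfide bonds in secreted protein, 5 were lower, with a median of -1.22. PDI1, the essential protein disulfide isomerase, stood at 1692, 1607 and 914 CPM with EGFP, against 4135, 4398 and 3379 CPM with the vector (-1.50 ± 0.28, adjusted p = 0.00163). EUG1, which encodes a related isomerase, stood at 31.7, 37.6 and 51.1 CPM with EGFP, against 142, 135 and 123 CPM with the vector (-1.73 ± 0.24, adjusted p = 0.000208). Every EGFP library was below every vector library for both genes. The isomerase gene MPD1 (-1.81 ± 0.26, adjusted p = 0.000226), the Hsp70 exchange factor gene SIL1 (-1.65 ± 0.27, adjusted p = 0.000543) and the isomerase gene FPR2 (-1.53 ± 0.22, adjusted p = 0.000234) also fell. KAR2, the ER Hsp70, changed less (-0.77 ± 0.23, adjusted p = 0.0236) and was not called without EGFP replicate 1 (adjusted p = 0.117) or vector replicate 1 (adjusted p = 0.0664).

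HAC1, the factor that drives the unfolded protein response, had no common level in either group. It stood at 804, 14.8 and 15.5 CPM in EGFP replicates 1 to 3, against 1161, 18.1 and 772 CPM in vector replicates 1 to 3, and was not called (adjusted p = 0.489). Each group thus held libraries at a high and at a low level, and the groups overlapped. Without EGFP replicate 1 the gene was called lower (-5.42, adjusted p = 0.00211).

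**Figure D2:**
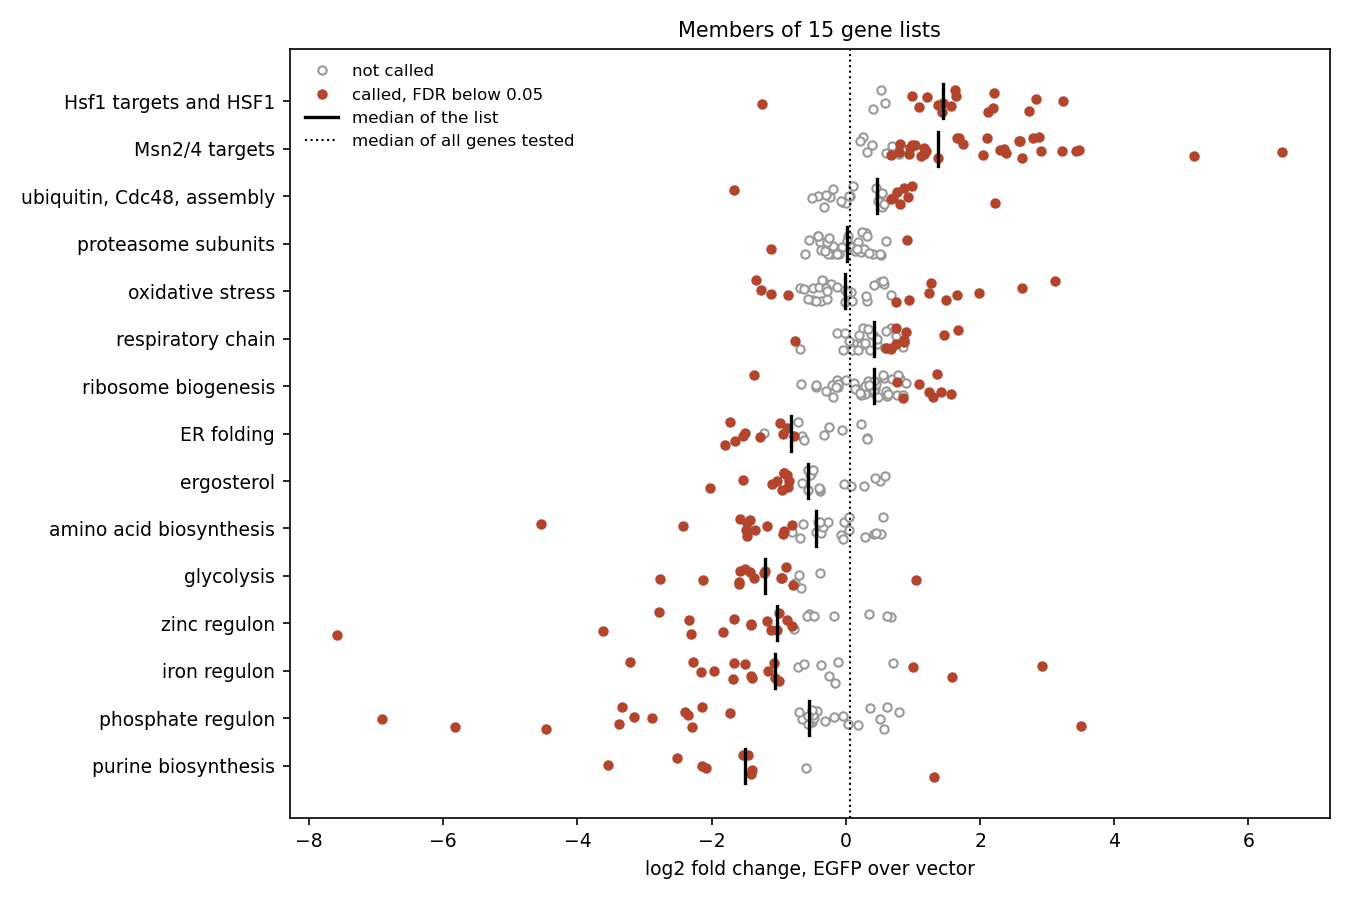
Log2 fold change, EGFP over vector, of every member tested of 15 gene lists, 1 point a gene, filled where called (adjusted p below 0.05), with a thick line at the median of each list and a dotted line at the median of all genes (0.06). The Hsf1 and Msn2/4 lists lie right of the dotted line, with medians of 1.45 (HSF1 included) and 1.37, and the proteasome list lies on it. Among the lists left of it are glycolysis (median -1.21, 14 of 19 called lower), ER, zinc, iron and purine.

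Genes induced by phosphate shortage fell in part, with the largest changes in the transporter genes PHO84 and PHO89. Of 33 genes of phosphate uptake and storage, 12 were called lower and 1 higher, with a median of -0.55, and 12 to 14 were lower when any 1 library was left out. The 12 were transporters (3), phosphatases (4), genes of polyphosphate (3) and other targets of Pho4 (SPL2 and PHM6), and none of the 5 regulators tested was called. The Pho4 site CACGTG, which the factor Cbf1 also binds and which reads the same on both strands, was found before 10 of the 12 genes called lower, before 8 of the 20 not called, and in 6.23% of all promoters. Sites of PHO84, SPL2 and VTC4 are shown since each promoter held several. Capitals mark CACGTG. The windows are chrXIII:26197-26248 (minus strand, 448 to 397 bases before the start codon of PHO84), chrVIII:375173-375259 (minus, 159 to 73 before SPL2, 2 of its 4 matches) and chrX:413495-413536 (minus, 137 to 96 before VTC4) of R64.
PHO84: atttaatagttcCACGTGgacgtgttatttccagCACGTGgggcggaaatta
SPL2: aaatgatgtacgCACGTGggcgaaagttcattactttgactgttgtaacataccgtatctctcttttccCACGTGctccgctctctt
VTC4: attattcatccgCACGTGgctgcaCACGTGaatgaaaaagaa

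PHO84, the high-affinity phosphate transporter, stood at 44.6, 38.8 and 23.5 CPM with EGFP, against 4357, 5792 and 2799 CPM with the vector (-6.92 ± 0.41, adjusted p = 2.46e-07). A noncoding RNA gene overlaps PHO84, and their reads can be told apart only if counting used strand. PHO89, the sodium-coupled transporter, stood at 7.84, 7.17 and 4.37 CPM with EGFP, against 454, 534 and 118 CPM with the vector (-5.83 ± 0.52, adjusted p = 9.94e-06). SPL2, which lowers the low-affinity transporters, stood at 5.83, 3.996 and 1.33 CPM with EGFP, against 86.3, 98.5 and 65.0 CPM with the vector (-4.46 ± 0.41, adjusted p = 1.18e-05). In each of these the third replicate of either group was the lowest, and the groups did not overlap. The secreted acid phosphatases fell by like amounts, PHO5 to 36.1, 43.9 and 37.8 CPM with EGFP, against 488, 338 and 370.1 CPM with the vector (-3.34 ± 0.25, adjusted p = 2.98e-06). PHO11 (-3.17 ± 0.24, adjusted p = 2.98e-06) and PHO12 (-3.38 ± 0.24, adjusted p = 1.44e-06) are nearly identical copies, so that their single values are uncertain.

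The polyphosphate polymerase, which stores phosphate in the vacuole, lost most of its subunit transcripts. VTC4, its catalytic subunit, stood at 74.1, 68.0 and 70.6 CPM with EGFP, against 352, 366 and 370.5 CPM with the vector (-2.36 ± 0.22, adjusted p = 1.34e-05), and VTC3 (-2.29 ± 0.24, adjusted p = 3.07e-05) and VTC1 (-2.15 ± 0.27, adjusted p = 9.81e-05) fell as much. VTC2 was not called (-0.47 ± 0.23, adjusted p = 0.138). PHO8, the vacuolar alkaline phosphatase (-1.72 ± 0.24, adjusted p = 0.00018), GIT1, a glycerophosphoinositol transporter (-2.39 ± 0.27, adjusted p = 5.22e-05), and PHM6 (-2.88 ± 0.35, adjusted p = 8.85e-05) fell. PHO4 itself stood at 7.52, 10.2 and 5.46 CPM with EGFP, against 5.31, 12.7 and 7.94 CPM with the vector (adjusted p = 0.747). The one gene called higher was DIA3, which a small gene overlaps, at 11.9, 16.6 and 10.4 CPM with EGFP, against 0, 0 and 3.19 CPM with the vector, and it was not called by DESeq2's Wald test.

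Genes of zinc transport and targets of Zap1 fell. Of 23, none was called higher and 15 were called lower, with a median of -1.03, and 13 to 17 were lower when any 1 library was left out. ZRT1, the high-affinity zinc transporter of the plasma membrane, stood at 2036, 2367 and 1482 CPM with EGFP, against 9684, 11671 and 8348 CPM with the vector (-2.34 ± 0.28, adjusted p = 8.32e-05). ZRT3, which releases zinc from the vacuole, stood at 292, 405 and 274 CPM with EGFP, against 2441, 2089 and 2136 CPM with the vector (-2.78 ± 0.26, adjusted p = 1.34e-05). ZRC1, which moves zinc in the other direction, fell as well (-1.41 ± 0.24, adjusted p = 0.000862). The groups were apart for all of these.

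ZPS1, which encodes a surface protein of zinc-starved cells, had the largest decrease of all genes tested, at 52.9, 56.4 and 64.2 CPM with EGFP, against 12877, 8171 and 12202 CPM with the vector (-7.58 ± 0.35, adjusted p = 2.04e-08). MCD4, an enzyme of glycosylphosphatidylinositol anchor synthesis, stood at 27.4, 50.7 and 69.7 CPM with EGFP, against 863, 497 and 463 CPM with the vector (-3.62 ± 0.37, adjusted p = 2.69e-05). FET4, a low-affinity metal transporter (-1.83 ± 0.24, adjusted p = 0.000158), and ADH4, an alcohol dehydrogenase of zinc-limited cells (-1.67 ± 0.24, adjusted p = 0.000243), also fell. ZAP1, the regulator, which activates its own gene, stood at 29.5, 41.1 and 41.6 CPM with EGFP, against 84.8, 84.8 and 59.3 CPM with the vector (-1.03 ± 0.25, adjusted p = 0.00692). The full zinc element ACCTTNAAGGT was found in only 9 of the 6006 promoters (0.15%), of which 3 belong to the 15 genes called lower and 1 to the 8 not called. The elements of ZRT1 and MCD4 are shown, with the element in capitals, from chrVII:20762-20796 (plus strand, 216 to 182 bases before the start codon) and chrXI:140773-140807 (minus, 116 to 82 before) of R64.
ZRT1: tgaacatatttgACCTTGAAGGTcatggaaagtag
MCD4: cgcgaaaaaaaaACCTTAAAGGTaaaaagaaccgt

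Iron uptake genes fell, most of all those of siderophores, the iron chelates that other microbes secrete. Of 23 iron genes tested, 13 were called lower and 3 higher, with a median of -1.05, and 12 to 14 were lower when any 1 library was left out. Among the 7 siderophore genes, 6 were lower, with a median of -1.42. ENB1, the enterobactin transporter, stood at 50.003, 55.6 and 69.4 CPM with EGFP, against 563, 645 and 422 CPM with the vector (-3.22 ± 0.27, adjusted p = 5.64e-06). SIT1, a ferrioxamine transporter, stood at 99.7, 125 and 133 CPM with EGFP, against 572, 689 and 473 CPM with the vector (-2.28 ± 0.25, adjusted p = 4.35e-05). The groups were apart for both. FIT2, a cell wall protein that retains siderophores (-2.16 ± 0.29, adjusted p = 0.000146), FET3, the multicopper oxidase of high-affinity uptake (-1.97 ± 0.23, adjusted p = 7.89e-05), and SMF3, which exports iron from the vacuole (-1.67 ± 0.23, adjusted p = 0.000183), also fell.

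The genes of the iron list called higher were the regulator AFT1, HMX1 and CTH1. AFT1 stood at 13.1, 19.2 and 21.6 CPM with EGFP, against 4.91, 6.40 and 6.47 CPM with the vector (1.59 ± 0.29, adjusted p = 0.00116). HMX1, the heme oxygenase that frees iron from heme, stood at 59.3, 54.2 and 30.3 CPM with EGFP, against 4.64, 8.40 and 5.69 CPM with the vector (2.93 ± 0.32, adjusted p = 4.43e-05). CTH1, which promotes decay of transcripts for iron-using proteins, changed less (1.00 ± 0.23, adjusted p = 0.00566). The transcript of the regulator and those of most of its uptake targets thus moved in opposite directions. The Aft1 site TGCACCC, searched on both strands, was found before 12 of the 13 genes called lower, before 1 of the 3 called higher, before 5 of the 7 not called, and in 2.33% of all promoters. The sites of ENB1 and SIT1, the siderophore transporters with the largest changes, are in capitals, from chrXV:21430-21516 (minus strand, 205 to 119 bases before the start codon) and chrV:27457-27487 (plus, 200 to 170 before) of R64, and that of SIT1 reads as the complement.
ENB1: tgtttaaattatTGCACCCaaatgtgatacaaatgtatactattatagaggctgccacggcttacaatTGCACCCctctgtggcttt
SIT1: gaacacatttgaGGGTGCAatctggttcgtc

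Copper genes split by role. The metallothionein genes rose, CUP1-1 to 20.6, 19.8 and 14.6 CPM with EGFP, against 4.11, 5.74 and 1.81 CPM with the vector (2.23 ± 0.37, adjusted p = 0.000695), and CRS5 to 21.7, 18.2 and 7.64 CPM with EGFP, against 5.18, 6.74 and 3.62 CPM with the vector (1.61 ± 0.38, adjusted p = 0.00655). CUP1-1 has identical copies and overlaps other genes, so that its value is uncertain. The copper importer genes CTR1 (-0.96 ± 0.23, adjusted p = 0.00746) and CTR2, of the vacuole (-1.45 ± 0.24, adjusted p = 0.000639), fell, and so did the copper carrier gene ATX1 (-1.21 ± 0.30, adjusted p = 0.00818). Of 8 copper genes tested, 2 were higher and 3 lower.

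Purine synthesis genes fell with EGFP, while their activator BAS1 rose. Of 10 genes, 8 were called lower and 1 higher, with a median of -1.50, and 8 were lower whichever library was left out. The list leaves out ADE57, a bifunctional gene of early purine steps, which changed slightly more than any member, at 628, 659 and 423 CPM with EGFP, against 9412, 9081 and 2612 CPM with the vector (-3.62 ± 0.44, adjusted p = 8.32e-05). ADE17, which closes the purine ring, stood at 279, 335 and 277 CPM with EGFP, against 5181, 3855 and 1327 CPM with the vector (-3.54 ± 0.42, adjusted p = 7.31e-05). ADE13, the adenylosuccinate lyase, stood at 135, 146 and 179 CPM with EGFP, against 1296, 896 and 443 CPM with the vector (-2.52 ± 0.35, adjusted p = 0.000183). Vector replicate 3 was the lowest vector library for these genes, and the groups did not overlap. The summed level of the 10 genes was 1546.6, 1603.6 and 1426.4 CPM with EGFP, against 10125, 8044.2 and 3818.7 CPM with the vector.

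The serine hydroxymethyltransferase gene SHM2, which feeds carbon into purines, changed alike, at 525, 619 and 386 CPM with EGFP, against 10216, 5939.9 and 2259 CPM with the vector (-3.59 ± 0.46, adjusted p = 0.000118). BAS1 stood at 11.3, 11.0 and 13.0 CPM with EGFP, against 4.38, 6.07 and 3.62 CPM with the vector (1.32 ± 0.30, adjusted p = 0.00547). The Bas1 site TGACTC, searched on both strands, is also the core of the site of Gcn4, the activator of amino acid synthesis. It was found before all 8 purine genes called lower and in 12.7% of all promoters. The sites of ADE17 and ADE13, the listed purine genes with the largest changes, are in capitals, from chrXIII:509570-509599 (minus strand, 319 to 290 bases before the start codon) and chrXII:844054-844083 (plus, 228 to 199 before) of R64, and that of ADE13 reads as the complement. For ADE17, 1 of its 2 matches is shown.
ADE17: atttgcagttttTGACTCttttttccttag
ADE13: cctccgcgagcaGAGTCAaacttcaaacaa

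**Figure D3:**
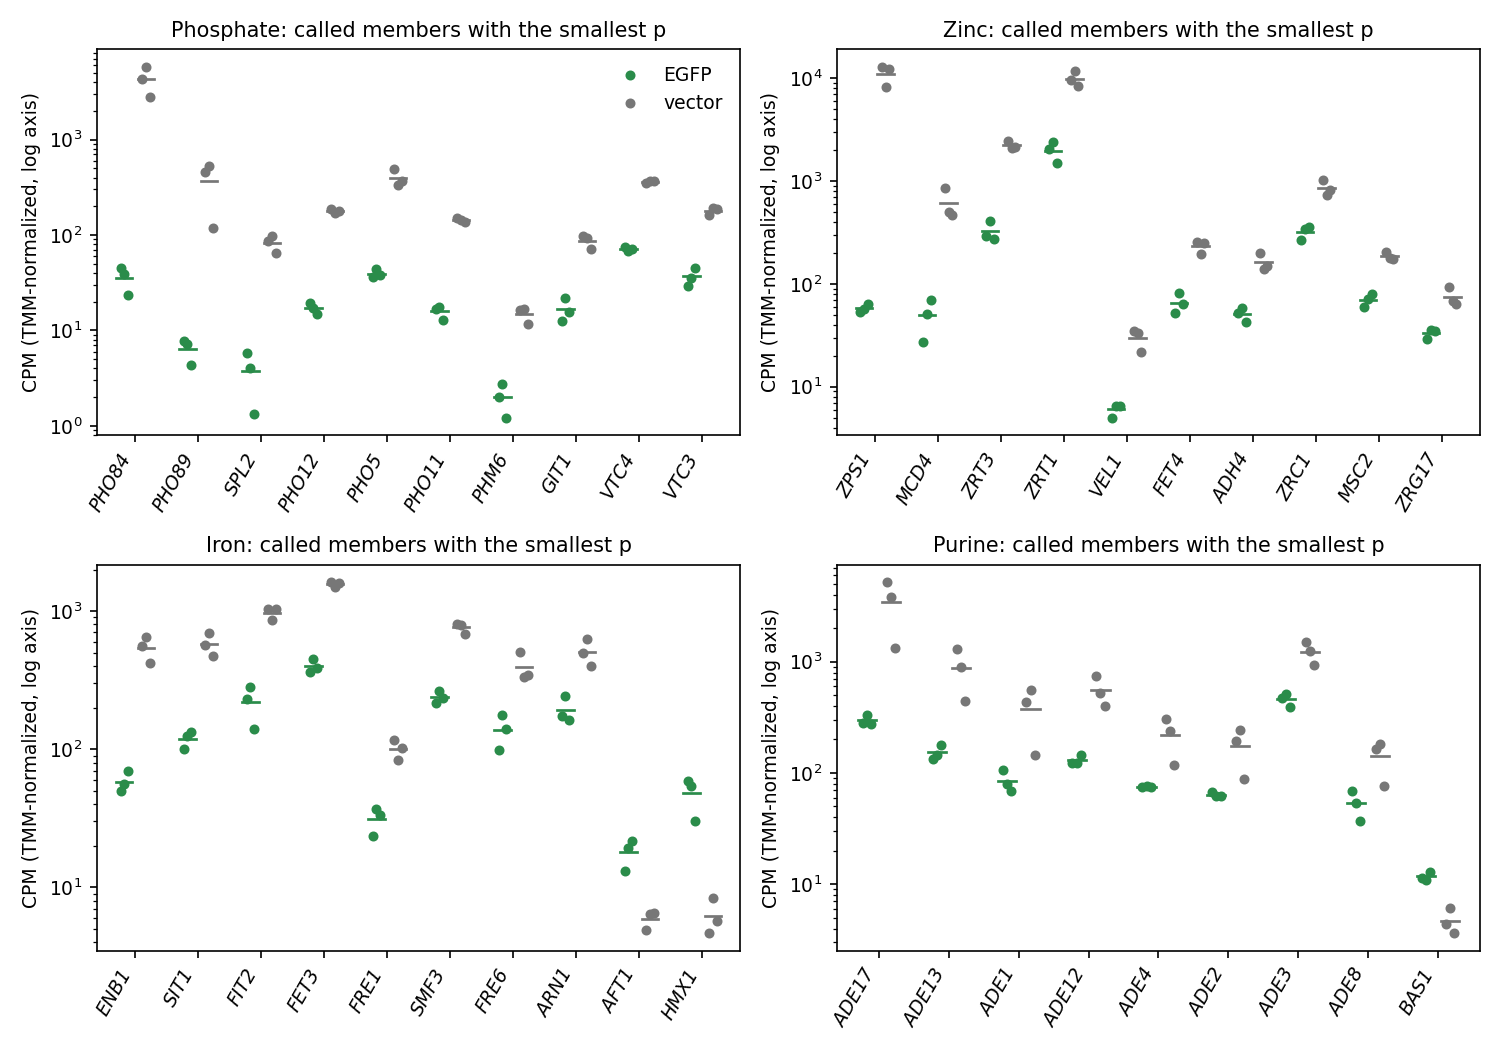
Level in every library, in CPM on log axes, of the called members with the smallest p of the phosphate, zinc, iron and purine lists, with EGFP libraries in green left of vector libraries in grey and a line at the mean of each group. EGFP points lie below vector points except for AFT1, HMX1 and BAS1, which lie above them.

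**Figure D4:**
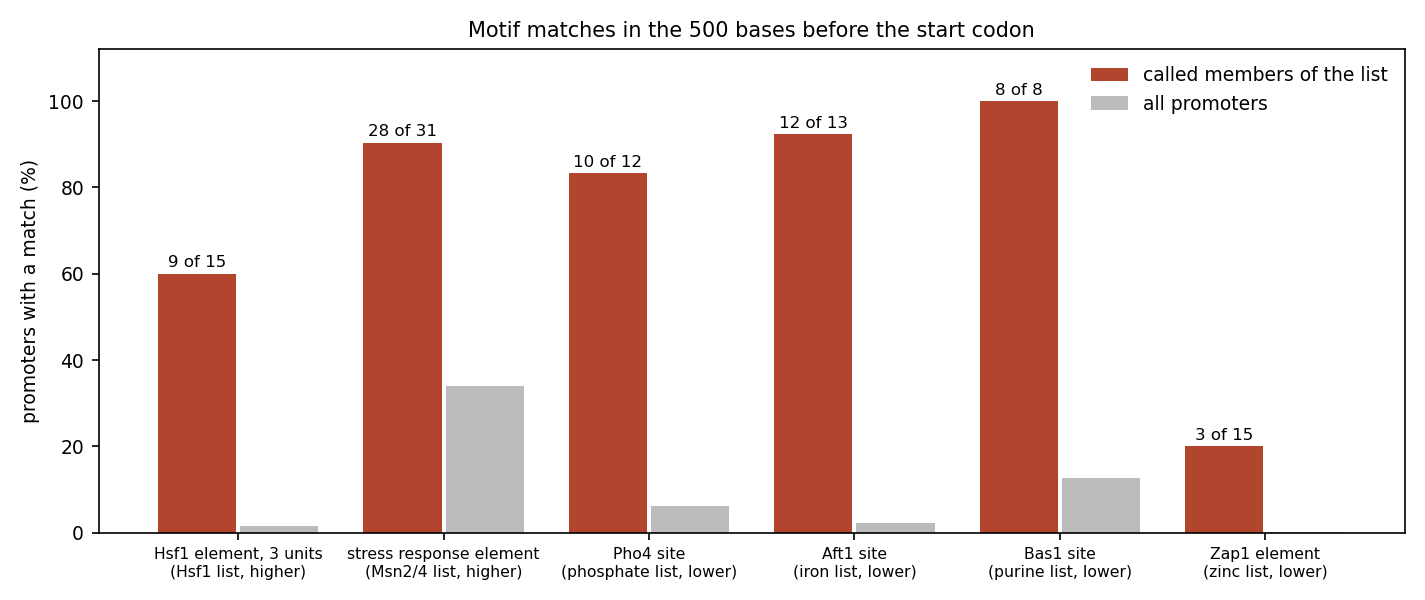
Share of promoters, in percent, with a match to each site within 500 bases before the start codon, for the called members of a list (red) and for all 6006 promoters (grey), with the counts of called members above the red bars. The red bar is higher than the grey one for each site, from 3 of 15 against 0.15% for the zinc element to 8 of 8 against 12.7% for the Bas1 site. The lists were built around these factors or pathways, so that this excess does not bear on the change with EGFP. Members not called, which are not drawn, held the site in 7 of 8 (stress element), 5 of 7 (Aft1), 8 of 20 (Pho4), 1 of 3 (Hsf1), 1 of 8 (zinc) and 0 of 1 (Bas1).

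Genes of amino acid synthesis under Gcn4 were lower in part. Of 31, none was called higher and 12 were called lower, with a median of -0.45. Scaled by library sizes alone the median was 0.02, where that of all genes was 0.52, so that the list lay at -0.51 relative to it. HIS4, a histidine synthesis enzyme, stood at 439, 461 and 461 CPM with EGFP, against 1492, 1033 and 1289 CPM with the vector (-1.49 ± 0.24, adjusted p = 0.000548), and the tryptophan synthase gene TRP5 fell alike (-1.47 ± 0.25, adjusted p = 0.000742). The arginine genes ARG1 and ARG4 were not called (adjusted p = 0.831 and 0.916). GCN4 stood at 829.7, 766 and 991 CPM with EGFP, against 631, 389 and 744 CPM with the vector, and was not called (adjusted p = 0.139). The site TGACTC was found before 8 of the 12 called lower and before 15 of the 19 not called.

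Lysine genes, chosen for display after their values were seen, were lowest in EGFP replicate 3. LYS9, a saccharopine dehydrogenase of lysine synthesis, stood at 704, 683 and 67.8 CPM in EGFP replicates 1 to 3, against 2986, 3159.6 and 1691 CPM with the vector (-2.43 ± 0.60, adjusted p = 0.00824), and it was also called without EGFP replicate 3 (-1.91, adjusted p = 0.00179). LYS20, the first enzyme of the pathway, stood at 516, 529 and 84.2 CPM with EGFP, against 1020.0, 1066 and 1061 CPM with the vector (-1.48 ± 0.48, adjusted p = 0.0305). EGFP replicate 3 was far below the other EGFP libraries for both, and the same held for LYS12, LYS1 and LYS21. LYS20 was not called without any 1 of the vector libraries (adjusted p = 0.0521 to 0.0705), while without EGFP replicate 3 it was (adjusted p = 0.00978). SER3, the first enzyme of serine synthesis, stood at 2.65, 1.36 and 2.55 CPM with EGFP, against 83.7, 1.58 and 66.8 CPM with the vector (-4.54 ± 0.93, adjusted p = 0.00257). Vector replicate 2 lay within the EGFP range of SER3, and a noncoding RNA gene overlaps it.

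**Figure D5:**
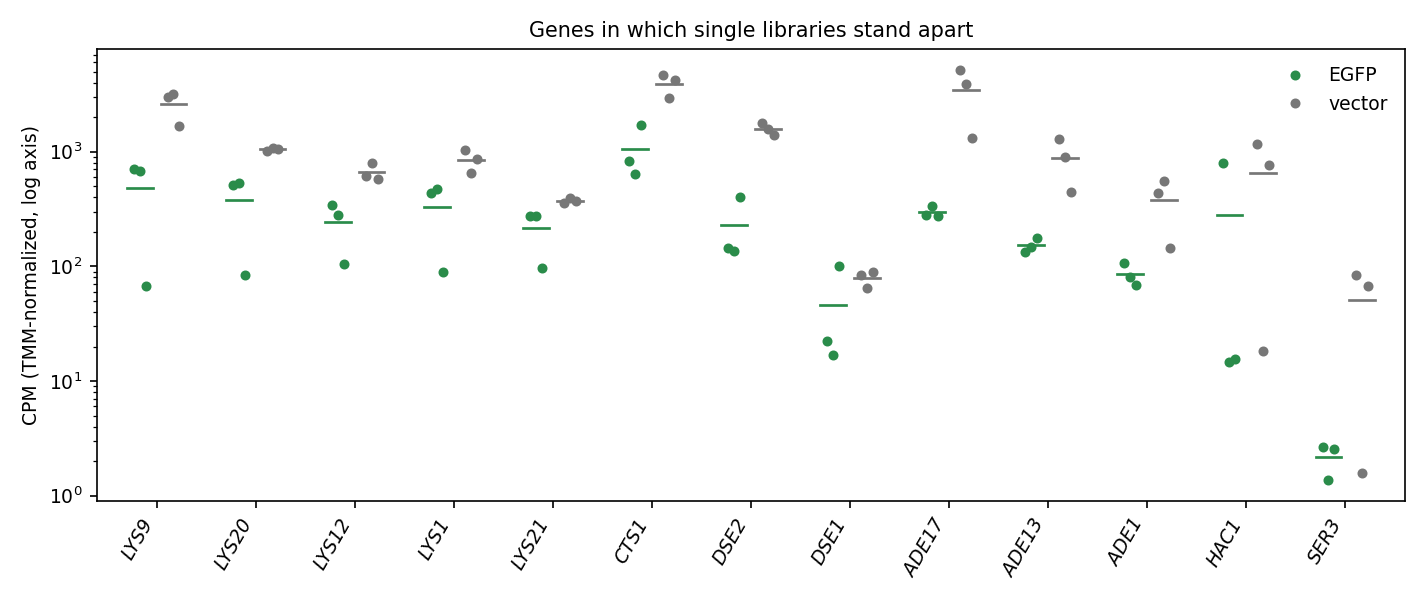
Level in every library, in CPM on a log axis, of genes in which single libraries stood apart, chosen after their values were seen, with EGFP libraries in green left of vector libraries in grey, replicates 1 to 3 from left to right, and a line at the mean of each group. EGFP replicate 3 is low for the LYS genes and high for CTS1, DSE2 and DSE1, vector replicate 3 is low for the ADE genes, and HAC1 and SER3 have libraries at a high and at a low level.

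Sulfur assimilation and methionine genes were lower among the enzymes. Of 22, 9 were called lower and 2 higher, with a median of -0.34, and 5 were lower without EGFP replicate 1 and 5 without vector replicate 1. Scaled by library sizes alone the median was 0.16, which is -0.36 relative to that of all genes. MET17, the sulfhydrylase that is deleted on one homologue of this strain under its name MET15, stood at 205, 209.8 and 229 CPM with EGFP, against 1740.3, 974 and 1569 CPM with the vector (-2.74 ± 0.28, adjusted p = 2.48e-05). Another gene overlaps MET17. MET6, the methionine synthase, stood at 1173, 1449 and 1692 CPM with EGFP, against 7104, 3969 and 4210.0 CPM with the vector (-1.83 ± 0.29, adjusted p = 0.00055). SAM1, which makes S-adenosylmethionine, fell as well (-1.79 ± 0.26, adjusted p = 0.000285). Every EGFP library was below every vector library for these genes.

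Several genes that separate daughter from mother cells fell. They are expressed in the daughter at the end of division, and a number of them encode enzymes that cut the septum. CTS1, the chitinase, stood at 834, 643 and 1717 CPM with EGFP, against 4658, 2919.7 and 4208 CPM with the vector (-1.88 ± 0.36, adjusted p = 0.00159). DSE2, a daughter-specific wall protein, stood at 145, 136 and 403 CPM with EGFP, against 1785, 1584 and 1398 CPM with the vector (-2.80 ± 0.39, adjusted p = 0.000199). EGFP replicate 3 was the highest EGFP library for both, and the groups did not overlap. The glucanase genes SCW11 (-1.73 ± 0.29, adjusted p = 0.00072) and DSE4 (-1.42 ± 0.32, adjusted p = 0.00481) also fell. ASH1, a daughter-specific repressor under Swi5, was higher (1.16 ± 0.25, adjusted p = 0.00319).

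Of 23 genes of cell polarity and morphogenesis, 6 were called higher and 2 lower, with a median of 0.21. CLA4, a kinase of bud growth, stood at 23.2, 24.7 and 22.8 CPM with EGFP, against 7.30, 6.74 and 7.68 CPM with the vector (1.70 ± 0.24, adjusted p = 0.000225). SWE1, the kinase that holds back mitosis when the bud is not formed, stood at 11.3, 20.4 and 19.04 CPM with EGFP, against 52.0, 39.9 and 32.4 CPM with the vector (-1.29 ± 0.28, adjusted p = 0.004). TEC1, a factor of filamentous growth (1.94 ± 0.39, adjusted p = 0.00227), and the polarisome genes SPA2 (1.37 ± 0.33, adjusted p = 0.00688) and BUD6 (1.28 ± 0.33, adjusted p = 0.011) rose. The groups were apart for CLA4 and SWE1, whose directions were opposite.

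Wall genes moved both ways. PIR3, a stress-induced wall mannoprotein gene, stood at 923, 1658 and 583 CPM with EGFP, against 125, 97.1 and 45.2 CPM with the vector (3.57 ± 0.43, adjusted p = 8.82e-05). SUN4, which acts in septum formation, stood at 111, 102 and 121 CPM with EGFP, against 503, 509 and 408 CPM with the vector (-2.09 ± 0.23, adjusted p = 4.5e-05). The glucanosyltransferase genes GAS1 (-1.58 ± 0.27, adjusted p = 0.000736), GAS3 (-1.86 ± 0.30, adjusted p = 0.000592) and GAS5 (-1.75 ± 0.26, adjusted p = 0.000285) fell, whereas SLT2, the kinase of the cell wall integrity pathway, stood at 111, 117 and 92.1 CPM with EGFP, against 41.8, 53.6 and 44.9 CPM with the vector (1.19 ± 0.22, adjusted p = 0.00162), and its target factor RLM1 rose (1.36 ± 0.29, adjusted p = 0.0035). Of 19 wall protein genes, 7 were called higher and 4 lower, and 4 were higher without EGFP replicate 1, without EGFP replicate 2 or without vector replicate 3.

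Lipid synthesis genes fell in part. Of 25 ergosterol genes, 10 were called lower and none higher, with a median of -0.56, but 7 were lower without EGFP replicate 1 and 5 without vector replicate 1. ERG4, the last enzyme of the pathway, stood at 376, 422 and 426 CPM with EGFP, against 1623, 1771 and 1561 CPM with the vector (-2.02 ± 0.23, adjusted p = 6.06e-05). OPI3, which methylates phosphatidylethanolamine to phosphatidylcholine, stood at 3819, 3722 and 2567 CPM with EGFP, against 10533, 9917 and 9139 CPM with the vector (-1.55 ± 0.26, adjusted p = 0.000763). The groups did not overlap for either. The elongase gene ELO1 (-2.09 ± 0.25, adjusted p = 8.73e-05) and the inositol transporter gene ITR1 (-1.62 ± 0.26, adjusted p = 0.000548) fell, whereas INO1, the enzyme that makes inositol, was called higher (0.92 ± 0.30, adjusted p = 0.0312), but not without EGFP replicate 2, vector replicate 2 or vector replicate 3 (adjusted p = 0.099 to 0.183). The fatty acid synthase gene FAS1 (adjusted p = 0.594) and the desaturase gene OLE1 (adjusted p = 0.627) were not called.

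Some genes of the respiratory chain rose, and several of the citric acid and glyoxylate cycles fell. Of 35 respiratory genes tested, 9 were called higher and 1 lower, with a median of 0.42, and 4 were higher without EGFP replicate 2 and 5 without vector replicate 3. QCR2, a core subunit of complex III, stood at 109, 129 and 89.8 CPM with EGFP, against 40.2, 39.8 and 39.3 CPM with the vector (1.46 ± 0.23, adjusted p = 0.000456). Of the 9 complex III genes, 5 were called higher. Of 17 genes of the citric acid cycle, 1 was called higher and 5 lower, with a median of -0.36. ACO1, the aconitase of the citric acid cycle, stood at 315, 405 and 355 CPM with EGFP, against 1678, 1062 and 1229.5 CPM with the vector (-1.88 ± 0.26, adjusted p = 0.00018). MLS1, the malate synthase of the glyoxylate cycle, stood at 4.45, 5.72 and 6.19 CPM with EGFP, against 49.4, 51.8 and 35.1 CPM with the vector (-3.06 ± 0.27, adjusted p = 9.94e-06). ADR1, an activator of genes for growth without glucose, was higher (2.02 ± 0.34, adjusted p = 0.000784).

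Smaller groups gave fewer calls. Of 16 genes of the vacuole and autophagy, 3 were called higher and 2 lower, with a median of 0.26. The autophagy genes ATG39, a receptor for degradation of the nuclear envelope (1.97 ± 0.30, adjusted p = 0.000345), and ATG1, the kinase that starts autophagy (1.54 ± 0.31, adjusted p = 0.00227), rose, whereas the vacuolar protease genes PRC1 (-1.48 ± 0.28, adjusted p = 0.0016) and PEP4 (-0.89 ± 0.24, adjusted p = 0.0122) fell. Of 10 histone genes, 4 were called lower and none higher, with a median of -0.59, and 2 were lower without EGFP replicate 2 or without vector replicate 3. NDT80, which drives the middle stage of sporulation, stood at 24.4, 30.0 and 26.8 CPM with EGFP, against 98.5, 73.1 and 60.6 CPM with the vector (-1.51 ± 0.25, adjusted p = 0.000623).

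To see which of these differences EGFP cells also showed against another overexpressed protein, they were set against the 3 libraries of the same strain and plasmid with moxGFP, a GFP variant without cysteines. This fit used all 9 libraries, and the comparisons with the vector and with moxGFP share the EGFP libraries. Of 6338 genes tested, 448 (7.07%) were higher and 474 (7.48%) lower in EGFP cells than in moxGFP cells. In moxGFP replicate 2, ribosomal RNA took 61.1% of gene counts (95% Wilson interval 61.11 to 61.18), and without it 650 genes were higher and 744 lower. The counts fell to 69 and 32 without EGFP replicate 2, to 148 and 111 without EGFP replicate 1, to 372 and 313 without EGFP replicate 3, and to 251 and 445 without moxGFP replicate 3.

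The Hsf1 and Msn2/4 genes were higher in EGFP cells than in moxGFP cells too. Of 19 genes of the Hsf1 list, 15 were called higher and none lower, with a median of 1.66, and 16 were higher without moxGFP replicate 2. HSP104 stood at 59.0, 105 and 61.7 CPM in moxGFP replicates 1 to 3, below its EGFP values (2.17 ± 0.31, adjusted p = 0.00401). Of the 39 general stress genes, 24 were called higher and none lower, with a median of 1.74, and 30 were higher without moxGFP replicate 2. DDR2 stood at 34.7, 50.7 and 25.6 CPM in moxGFP cells, below its EGFP values (2.90 ± 0.40, adjusted p = 0.00378) and above its vector values. HSP104 and DDR2 kept their calls without any 1 EGFP or moxGFP library (adjusted p at most 0.0247 and 0.0205). Over all genes tested, only 69 were higher without EGFP replicate 2 and 148 without EGFP replicate 1. How many calls of these lists were lost in those fits was not counted.

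The nutrient genes gave few calls between EGFP and moxGFP cells. Of the 23 zinc genes none was called higher and 2 were lower, of the 33 phosphate genes none was higher and 2 were lower, of the 23 iron genes 3 were higher and none lower, and of the 10 purine genes 1 was higher and none lower. Without moxGFP replicate 2, 4 zinc and 4 phosphate genes were lower, 5 iron genes were higher, and 1 purine gene was higher and 1 lower. ZRT1 stood at 2938, 1635 and 1348 CPM in moxGFP cells and did not pass the test against EGFP cells (-0.14 ± 0.40, adjusted p = 0.843). PHO84 was lower in EGFP cells (-2.16 ± 0.50, adjusted p = 0.0201), with 199.5, 58.6 and 180.2 CPM in moxGFP cells, but it was not called without any 1 of the EGFP libraries (adjusted p = 0.0619 to 0.0973). Ribosomal protein and ribosome biogenesis genes were the groups with the largest counts of calls in the other direction. Of these, 49 of 138 and 22 of 50 were lower in EGFP cells and none higher, and without moxGFP replicate 2, 52 and 34 were lower. These calls rested on single EGFP libraries. Over all genes tested, only 32 were lower without EGFP replicate 2 and 111 without EGFP replicate 1, so that most of these calls were lost without EGFP replicate 2. As a share of their list, more histone genes were lower, 5 of 10, with 1 higher.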

How the data were processed

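Total RNA of log-phase cultures was extracted with hot phenol, mixed with ERCC spike-in RNAs and made into libraries with a kit that keeps strand and depletes ribosomal RNA. The authors trimmed reads with FastP, aligned them with HISAT2 2.2.0, handled alignments with SAMtools 1.11, counted with StringTie and tested with edgeR 3.28.1, with versions from the submitters' processing notes. The genome build, the annotation and the strand setting of the counting are not given in the sources used here. The table deposited by the authors holds raw read counts per entry, in whole numbers, with no normalization.

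From these counts, TMM factors, CPM and quasi-likelihood tests were computed with edgeR 4.0.16 in R 4.3.3 over the 6 libraries, after its default filter on low counts. DESeq2 1.42.0 was an alternative. Calls are at an adjusted p below 0.05, and the biological coefficient of variation was 0.256. The code was tested on simulated data. Spike-in entries (92 of 7220) stayed out of all library sizes but one alternative, and 14 entries of ribosomal RNA stayed in. Intervals are Wilson intervals at 95% and cover counting error only, since reads carried no molecular identifiers. The 3 libraries of a group are labelled biological replicates, with no word on whether their cultures were separate, and p-values measure the spread between these libraries.

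Gene names, overlaps and promoters came from RefSeq R64, which matched 6048 entries, and near-identical copies from BLAST 2.17.0. R64 may not be the build of the counting. Promoters are the 500 bases before each start codon.

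The comparison and the 42 gene lists were chosen with earlier results of these data known, and lists are described by counts and medians. Not every list is described, and one gene is not reported here. Genes that could be named were set by rule: the GFP and MOX entries, the plasmid and strain markers, the 15 largest log2 fold changes in each direction among called genes with separate groups and at least 10 CPM, each regulator, RPN4, HSF1, the cyclins, and the 6 called members of each list with the smallest p. Not every gene under the rule is described, those with the largest changes included. Of 9 cyclins, 3 were called higher and 1 lower, and only CLN2 is described. Other genes named were chosen after their values were seen, among them SSA1, SSA2, HSC82, KAR2, TPS1, the VTC and LYS genes, CTH1, INO1, STE2 and STE3. Alternatives were other scalings, filters and tests, a replicate block, other sets of libraries, and leaving out each library.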

Additional observations from a re-analysis of the deposited data

Results flagged for a closer look

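TSL1, PGM2 and CLN2 were called higher in EGFP cells than in vector cells in the fit of those 6 libraries, and lower in moxGFP cells than in vector cells in the fit of all 9. In the fit of all 9 libraries, which also gives the differences from moxGFP below, and with ERCC scaling, none of the 3 was called in EGFP cells against the vector. TSL1, a subunit of the trehalose synthase complex, stood at 447, 822 and 519.6 CPM in EGFP cells, at 105, 54.0 and 60.1 CPM in moxGFP cells and at 270.2, 171 and 353 CPM in vector cells, and EGFP exceeded moxGFP by 2.90 on the log2 scale (edgeR, adjusted p = 0.00378). Its call against the vector was lost without EGFP replicate 2 (edgeR, adjusted p = 0.0606). PGM2, the main phosphoglucomutase, stood at 118, 158 and 127 CPM in EGFP cells, at 19.1, 7.29 and 15.03 CPM in moxGFP cells and at 88.2, 64.2 and 78.3 CPM in vector cells, a log2 difference of 3.13 between EGFP and moxGFP (edgeR, adjusted p = 0.00198). Its call against the vector was lost without EGFP replicate 2, vector replicate 2 or vector replicate 3 (edgeR, adjusted p = 0.053 to 0.0772). CLN2, a G1 cyclin, stood at 52.8, 72.5 and 59.9 CPM in EGFP cells, at 21.7, 8.46 and 17.9 CPM in moxGFP cells and at 42.3, 30.7 and 38.9 CPM in vector cells, a log2 difference of 1.79 (edgeR, adjusted p = 0.0104), and its call against the vector was lost without EGFP replicate 2 or without any 1 of the vector libraries (edgeR, adjusted p = 0.0503 to 0.131).

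The table also has an entry for moxGFP, which EGFP cells do not carry. It held 30074, 29623 and 50777 counts in EGFP replicates 1 to 3, or 3.38, 2.76 and 3.04% of the counts of the EGFP entry, against 5, 8 and 9 counts in vector replicates 1 to 3. The cause was not tested.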

How the results depend on the processing

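Of 242 called genes that the naming rule allowed, 100 kept their call under every alternative run. No gene under the rule turned its direction past the threshold. Some of these genes are not described here, and genes named outside the rule are not counted. Against the vector, where 898 genes were higher and 1055 lower, ERCC spike-ins as library size gave 216 and 329, all 9 libraries in the fit 482 and 492, and library sizes alone 2029 and 508. Leaving out each library in turn gave 556 to 930 higher and 733 to 1092 lower. ERCC scaling left 8 genes of the Hsf1 list and 19 general stress genes higher, and 2 ER, 7 zinc, 12 phosphate, 6 iron and 4 purine genes lower, with list medians that kept their sign. With ERCC scaling 132 of the genes under the rule lost their call, with all 9 libraries 74 and with library sizes alone 39. Against moxGFP, where 448 were higher and 474 lower, a fit of these 6 libraries alone gave 126 and 119, the fit without moxGFP replicate 2 gave 650 and 744, and leaving out each library gave 69 to 650 and 32 to 744. Causes were not tested. Whether the replicate numbers pair the libraries cannot be settled with 3 libraries a group. The deviations of same-numbered libraries correlated at -0.186, -0.0397 and 0.23, and those of the other pairs at -0.227 to 0.299. A replicate block gave 956 higher and 1115 lower against the vector, and 329 higher and 266 lower against moxGFP. HAC1 gained a call, as lower, under the block. Depth was lower in the EGFP libraries, so that low counts are less precise there.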

Other observations

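Small nucleolar RNAs, most of which guide the modification of ribosomal RNA, were lower with EGFP. This group and the transposon group were picked by annotation after their values were seen. Of 44 small nucleolar RNA genes tested, 38 were called lower and none higher, with a median of -1.99 on the log2 scale, and for 35 every EGFP library was below every vector library. Their summed level was 251, 219 and 249 CPM in EGFP replicates 1 to 3, against 1655, 655 and 590.2 CPM in vector replicates 1 to 3. Vector replicate 1 stood apart from the other vector libraries, and it was also the library with the most ribosomal RNA in these groups (23.0%) and the lowest TMM factor (0.708). The part of these in the result was not tested. The gene snR17a, one of the copies of U3, which acts in the first cuts of the precursor of ribosomal RNA, stood at 13.8, 13.4 and 13.5 CPM with EGFP, against 232, 58.8 and 28.1 CPM with the vector (-2.97 ± 0.58, edgeR, adjusted p = 0.00187).

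Coding genes of Ty retrotransposons were higher in part. Of 89 tested, 36 were called higher and 6 lower, with a median of 0.43, and their summed level was 3156, 2967 and 2905 CPM with EGFP, against 2168, 2242 and 1928 CPM with the vector. All 89 have near-identical copies, so that single members cannot be resolved.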
